A study of Mus musculus with 12 samples.

Results

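The transcription factors of naive pluripotency were followed while embryonic fibroblasts of the mouse (MEFs) were turned into induced pluripotent stem cells (iPSCs). The members were chosen by symbol, not by value. They are Nanog, Esrrb, Sall4, Tfcp2l1, Zfp42, Tbx3, Klf2, Nr5a2, Prdm14 and Nr0b1, which are 10 of the 24098 genes of the deposited table. All 10 reached 1 FPKM (fragments scaled by transcript length and by the size of the library) in at least 1 library, as did 14178 genes in all, which are called kept genes here.

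The MEFs were taken at E13.5 and reported Oct4 through EGFP, translated from an IRES in the Oct4 transcript. The pMXs retroviruses they received encoded c-Myc, Klf4, Oct4 and Sox2 (OSKM). Polyadenylated RNA was sequenced in 12 libraries, 1 for each of 12 conditions. Day 0 MEFs (D0) and day 3 cells (D3) were not sorted. At days 6 and 9 the gate was Thy-1, a fibroblast surface protein, which gave the negative fractions D6T- and D9T- and the positive fractions D6T+ and D9T+. At days 12 and 16 it was SSEA-1, a carbohydrate on the surface of pluripotent cells, which gave D12S+ and D16S+ and the negative fractions D12S- and D16S-. In the study's terms the Thy-1- and SSEA-1+ fractions are on the successful route, and the Thy-1+ and SSEA-1- fractions are unsuccessful. Per the labels, reprogramming cells, iPSCs and mESCs were kept in a medium with serum replacement, LIF, bFGF, CHIR99021, ascorbic acid and N-2. The study's methods give iPSCs and mESCs a medium with LIF and either serum or serum replacement, and list no bFGF or CHIR99021 in it. For reprogramming they name these media and that of the labels, so which medium each library had is open. The remaining libraries were from iPSCs and from the mouse embryonic stem cell line ES-D3 (mESCs). The gated surface marker changes between days 9 and 12, so a step between those days is also a step between gates. With 1 library per condition no difference has a replicate check, and no test was made.

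Libraries differed in depth by less than 2-fold. Relative to D0 their depth, read from the smallest steps of low genes, lay between 0.967 in D9T+ and 1.56 in D6T-, and absolute depth is unknown. Thy1 was at 3.24 and 3.72 FPKM in D6T- and D9T- and at 477 and 491 FPKM in D6T+ and D9T+, as the gates name them. The summed level of 10 fibroblast markers was 14602 FPKM in D0, 3444 in D16S- and 460 in D16S+.

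Naive pluripotency is the state of the inner cell mass of the blastocyst before implantation and of mouse embryonic stem cells kept with LIF. A network of transcription factors around Oct4 and Sox2 holds it. Nanog, a homeodomain protein, and Esrrb and Nr5a2, both orphan nuclear receptors, bind many enhancers of that state together with Oct4 and Sox2. Tfcp2l1 and Klf2 are activators that self-renewal signals act through, and Tbx3, a T-box factor, lies downstream of LIF. Sall4 is a zinc finger protein that binds Oct4 and Nanog. Zfp42, also called Rex1, is a zinc finger protein widely used as a marker of the naive state. Prdm14 represses differentiation genes and DNA methyltransferases. Nr0b1, also called Dax1, is a nuclear receptor that lacks the usual DNA-binding domain.

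Promoter sequences from RefSeq, GRCm38.p6, were at hand for 7 of the 10 members (Prdm14, Sall4 and Tbx3 had none) and each matched the mm9 genome at 1 place. The 250 bases before the annotated start are shown for 4 members that stand for the order of onset below: Klf2 was on in MEFs, Nr0b1 from day 6, Nanog from day 9, and Zfp42 was lowest against its iPSC level in D9T-. They run 5′ to 3′ on the strand of the gene, at chr8:74842711-74842960 on the plus strand for Klf2, chrX:83436864-83437113 on the plus strand for Nr0b1, chr6:122657257-122657506 on the plus strand for Nanog and chr8:44392364-44392613 on the minus strand for Zfp42, all in mm9. Capitals mark matches to the searched motifs on either strand.
Klf2: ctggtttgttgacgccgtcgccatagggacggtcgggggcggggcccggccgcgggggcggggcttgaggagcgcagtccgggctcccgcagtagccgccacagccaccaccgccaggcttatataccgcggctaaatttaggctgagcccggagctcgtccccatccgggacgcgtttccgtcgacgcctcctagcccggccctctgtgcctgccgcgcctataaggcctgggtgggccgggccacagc
Nr0b1: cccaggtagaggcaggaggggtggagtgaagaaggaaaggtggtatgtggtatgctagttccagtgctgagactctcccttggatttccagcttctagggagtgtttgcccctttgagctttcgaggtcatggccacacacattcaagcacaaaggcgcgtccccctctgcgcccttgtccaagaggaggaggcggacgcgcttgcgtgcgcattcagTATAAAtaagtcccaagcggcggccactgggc
Nanog: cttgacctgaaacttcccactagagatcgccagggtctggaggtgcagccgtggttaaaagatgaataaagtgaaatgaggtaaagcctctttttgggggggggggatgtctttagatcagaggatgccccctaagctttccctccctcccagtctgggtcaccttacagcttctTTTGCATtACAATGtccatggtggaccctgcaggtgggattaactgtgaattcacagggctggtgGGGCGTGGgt
Zfp42: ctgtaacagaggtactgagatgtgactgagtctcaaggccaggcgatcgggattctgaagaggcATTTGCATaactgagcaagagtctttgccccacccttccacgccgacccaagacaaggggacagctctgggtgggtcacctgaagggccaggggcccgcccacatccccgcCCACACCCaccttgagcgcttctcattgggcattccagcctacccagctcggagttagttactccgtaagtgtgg

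The motifs searched were the octamer ATGCAAAT and its shorter form ATGCAAA, both bound by Oct4-like factors, ACAATG for Sox factors, GGGNGTGG for Klf factors, TNAAGGTCA for Esrrb and TATAAA. The shorter octamer overlaps the longer one and was added after the sequences had been seen. Over 300 bases, with the 50 after the start, ATGCAAAT occurs in 1.74% of 32851 mouse promoters, ATGCAAA in 4.63%, ACAATG in 12.6%, GGGNGTGG in 17.6%, TNAAGGTCA in 1.28% and TATAAA in 13.6%. The Zfp42 promoter held ATGCAAAT on the minus strand from -186 to -179. The Nanog promoter held ATGCAAA on the minus strand from -75 to -69 with ACAATG from -67 to -62, so that an octamer-like and a Sox-like word stood side by side. Both promoters also held GGGNGTGG, and that of Nr0b1 held TATAAA from -32 to -27. The Klf2 promoter held none of the motifs. Among the members not shown, those of Tfcp2l1 and Nr5a2 held GGGNGTGG and TATAAA and that of Esrrb held ACAATG, and none held an octamer. The promoters also differed in CG pairs: Klf2 had 32 in 300 bases, more than 90.5% of mouse promoters, Nr0b1 had 14, Zfp42 had 11 and Nanog had 4, against a median of 7. Of those not shown, Tfcp2l1 had 21, Esrrb had 7, and Nr5a2 had 2 and 7 at its start sites 1 and 2. These are matches of letters, and nothing was measured about binding.

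Klf2 and Tbx3 were on in MEFs. A gene was called on from a library when it was above 1 FPKM there and in every later library of the successful route, which begins with D0 and D3 and ends with iPSCs. Both passed that level from D0, as did 66.0% of kept genes. In these bulk samples fewer cells that express a gene and less RNA of it per cell cannot be told apart. Klf2 (chromosome 8, 74842961 to 74845553) was at 12.7, 5.35, 7.90, 12.5, 55.6 and 83.8 FPKM in D0, D3, D6T-, D9T-, D12S+ and D16S+, at 161 FPKM in iPSCs and at 84.6 FPKM in mESCs. In D6T+, D9T+, D12S- and D16S- it was at 7.19, 10.7, 9.58 and 14.0 FPKM. Klf2 was lower in D3 than in D0, was back near its D0 level in D9T- and D16S-, and was above it on the successful route from D12S+. Tbx3 (chromosome 5, 120120871 to 120134733, with the antisense transcript Gm2301 inside) was at 14.4, 5.29, 3.47, 2.26, 6.70 and 11.0 FPKM along the successful route from D0 to D16S+, at 57.9 FPKM in iPSCs and at 43.5 FPKM in mESCs. The unsuccessful levels of Tbx3 were 6.62, 5.81, 3.10 and 3.61 FPKM, from D6T+ to D16S-. Its lowest point on the successful route was D9T-, and D16S+ was still below D0. At day 3 no member was 2-fold higher than in D0 (5.76% of kept genes were), and Klf2 and Tbx3 were at least 2-fold lower (8.67% of kept genes).

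Nr0b1 and Sall4 came on at day 6 in the Thy-1- cells. Only 1.58% of kept genes had their onset in D6T-. Nr0b1 (chromosome X, 83437114 to 83441283) was at 0.0559, 0.654, 20.9, 11.4, 27.1 and 33.4 FPKM from D0 to D16S+, at 90.9 FPKM in iPSCs and at 28.1 FPKM in mESCs. Nr0b1 was at 2.17, 4.64, 4.53 and 1.59 FPKM from D6T+ to D16S- in the unsuccessful fractions. D6T- already lay above all 4 unsuccessful fractions, D9T- was lower than D6T- by -0.82 on the log2(FPKM + 1) scale, and D12S+ stood at 96.7% of the mESC level. Sall4 (chromosome 2, 168573832 to 168592701, opposite the lincRNA Gm14261) was at 0.144, 0.0436, 5.12, 12.0, 40.0 and 59.7 FPKM from D0 to D16S+, at 140.0 FPKM in iPSCs and at 54.2 FPKM in mESCs. In D6T+, D9T+, D12S- and D16S- it was at 0.663, 5.67, 8.99 and 8.56 FPKM. The Sall4 level of the last 3 unsuccessful fractions was between those of D6T- and D9T-. Among the 10 members these 2 made their largest step from D3 to D6T-, by 3.73 for Nr0b1 and 2.55 for Sall4 on the log2(FPKM + 1) scale. In D6T- over D3 they were the only members at least 2-fold higher (3.96% of kept genes).

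Nanog, Esrrb and Tfcp2l1 followed in D9T-, where 2.31% of kept genes had their onset. This order depends on the threshold: at 0.5 FPKM Nanog and Tfcp2l1 came on at day 6, as Sall4 did, and Nr0b1 at day 3. Nanog (chromosome 6, 122657507 to 122664651) was at 0.0889, 0.119, 0.735, 18.5, 78.2 and 192 FPKM from D0 to D16S+, at 143 FPKM in iPSCs and at 137 FPKM in mESCs, so that D16S+ was the highest of all libraries. The unsuccessful levels of Nanog were 0.300, 7.30, 9.48 and 8.99 FPKM, from D6T+ to D16S-. Reads that Nanog shares with its pseudogenes were removed by the authors, so its level is uncertain. Esrrb (chromosome 12, 87702067 to 87862578) was at 0.215, 0.220, 0.174, 9.61, 89.5 and 134 FPKM from D0 to D16S+, at 165 FPKM in iPSCs and at 195 FPKM in mESCs. Esrrb was at 0.0986, 2.27, 3.01 and 4.97 FPKM from D6T+ to D16S- in the unsuccessful fractions. Until day 6 Esrrb stayed below 0.5 FPKM in both fractions. Tfcp2l1 (chromosome 1, 120524522 to 120581745) was at 0.0551, 0.198, 0.780, 4.61, 9.87 and 20.6 FPKM from D0 to D16S+, at 30.8 FPKM in iPSCs and at 40.8 FPKM in mESCs. In D6T+, D9T+, D12S- and D16S- it was at 0.183, 1.24, 1.95 and 2.02 FPKM. Like Nanog, Tfcp2l1 was higher in each library from D0 to D16S+ than in the one before it. The step from D6T- to D9T- was the largest for these 3 genes, by 3.49 for Nanog, 3.18 for Esrrb and 1.66 for Tfcp2l1 on the log2 scale. They and Sall4 were at least 2-fold higher in D9T- than in D6T- (5.06% of kept genes).

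**Figure D1:**
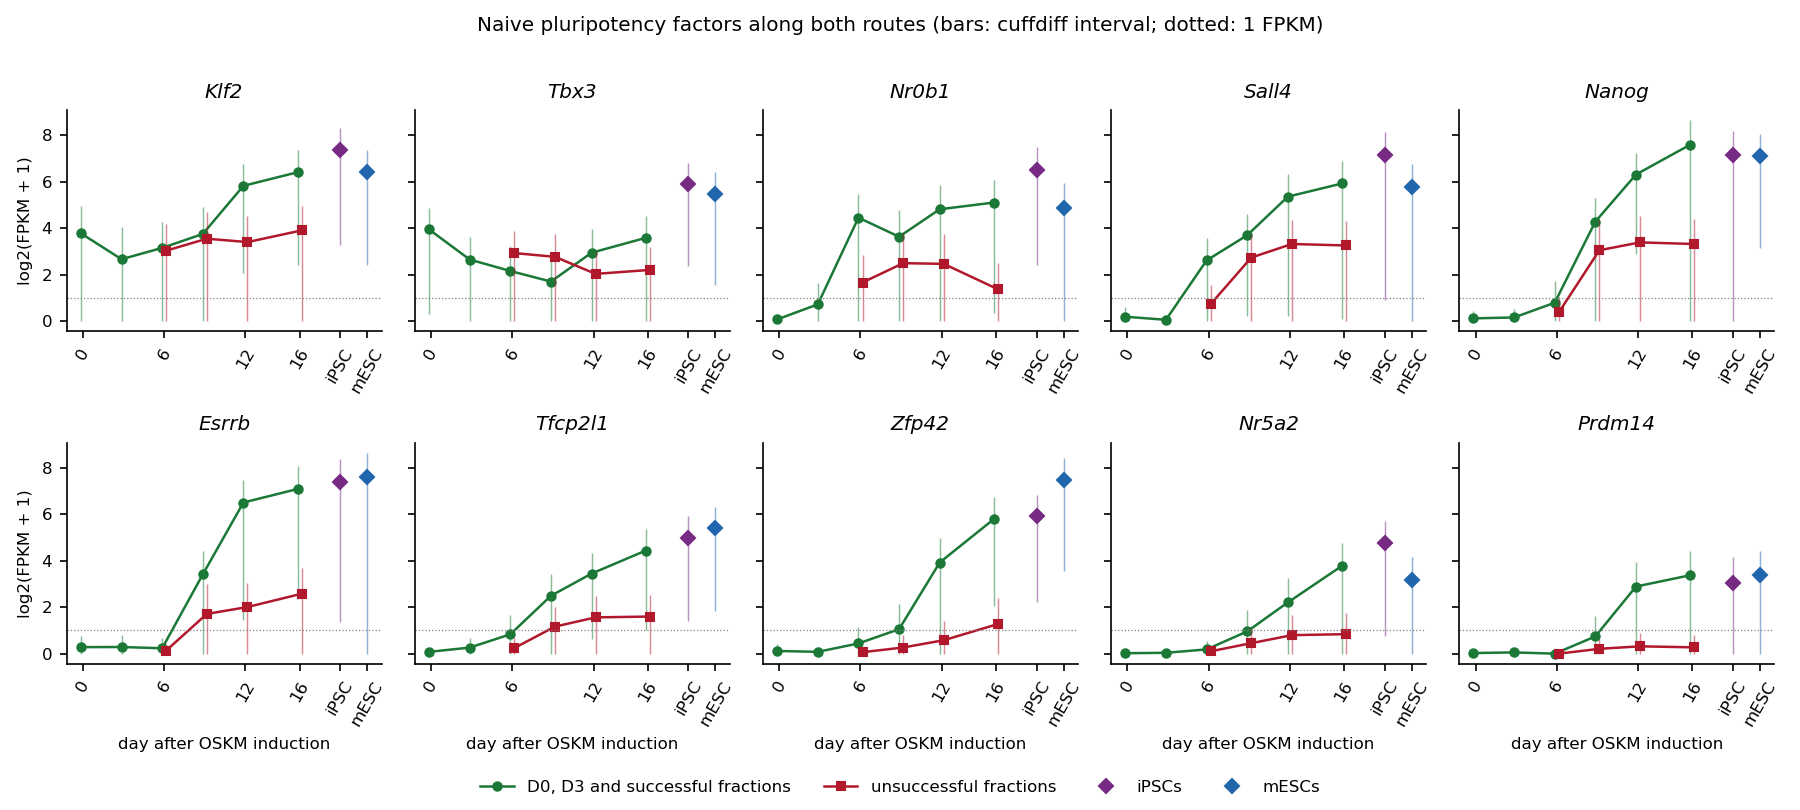
Level of each member on the y axis, as log2(FPKM + 1), against the day after OSKM induction on the x axis. Green points are D0, D3 and the successful fractions, red squares the unsuccessful fractions, diamonds iPSCs and mESCs, bars the interval cuffdiff gave and the dotted line 1 FPKM. Panels run by onset from Klf2 to Prdm14, and the green and red lines part at day 6 in Nr0b1 and Sall4 and cross in Tbx3.

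Zfp42, Nr5a2 and Prdm14 were the last and could be read down to single fragments. Their FPKM were whole multiples of a common step, within 0.1 of a step, in 8, 8 and 6 values checked, so that fragments could be estimated with exact 95% Poisson intervals. The intervals cover counting error only, since fragments from a PCR are not independent molecules, and the numbers are too low if a step is more than 1 fragment. Zfp42 (chromosome 8, 44380421 to 44392363) was at 0.0834, 0.0558, 0.356, 1.07, 14.1 and 54.2 FPKM from D0 to D16S+, at 58.6 FPKM in iPSCs and at 173 FPKM in mESCs. The unsuccessful levels of Zfp42 were 0.0441, 0.201, 0.492 and 1.42 FPKM, from D6T+ to D16S-. Zfp42 was therefore no higher in D9T- than in D16S-. The estimate was 20 Zfp42 fragments in D6T- (12.2 to 30.9) and 2 in D6T+ (0.242 to 7.22), intervals that do not overlap although both levels are below 1 FPKM.

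Nr5a2 (chromosome 1, 138740161 to 138857025) was at 0.0131, 0.0264, 0.135, 0.940, 3.60 and 12.7 FPKM from D0 to D16S+, at 25.8 FPKM in iPSCs and at 7.99 FPKM in mESCs. Nr5a2 was at 0.0729, 0.367, 0.735 and 0.789 FPKM from D6T+ to D16S- in the unsuccessful fractions, so no unsuccessful fraction reached 1 FPKM. Prdm14 (chromosome 1, 13103509 to 13117244) was at 0.0188 FPKM in D0 and 0.0377 in D3, was listed at 0 in D6T-, and was at 0.671, 6.39 and 9.35 FPKM in D9T-, D12S+ and D16S+, at 7.17 FPKM in iPSCs and at 9.39 FPKM in mESCs. It was listed at 0 in D6T+ and was at 0.155, 0.245 and 0.206 FPKM in D9T+, D12S- and D16S-. The Poisson interval of a count of 0 reaches 3.69 fragments, which is 0.0443 FPKM in D6T- and 0.0549 FPKM in D6T+, so a difference between these fractions was not detectable. Prdm14 had the lowest iPSC level of the 10 members, and its levels in D12S+, D16S+, iPSCs and mESCs lay closer together than those of Zfp42 and Nr5a2.

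Nr5a2 and Prdm14 passed 1 FPKM in D12S+, where 3.08% of kept genes had their onset, and Zfp42 in D9T-. The order of Zfp42 and Nr5a2 rests on few fragments. In D9T- the counting interval of Zfp42 ran from 0.773 to 1.45 FPKM (42 fragments) and that of Nr5a2 from 0.743 to 1.17 FPKM (78 fragments), so both hold 1 FPKM and the order was not resolved. That of Prdm14 ran from 0.477 to 0.918 FPKM (39 fragments) and lay below 1 FPKM.

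**Figure D2:**
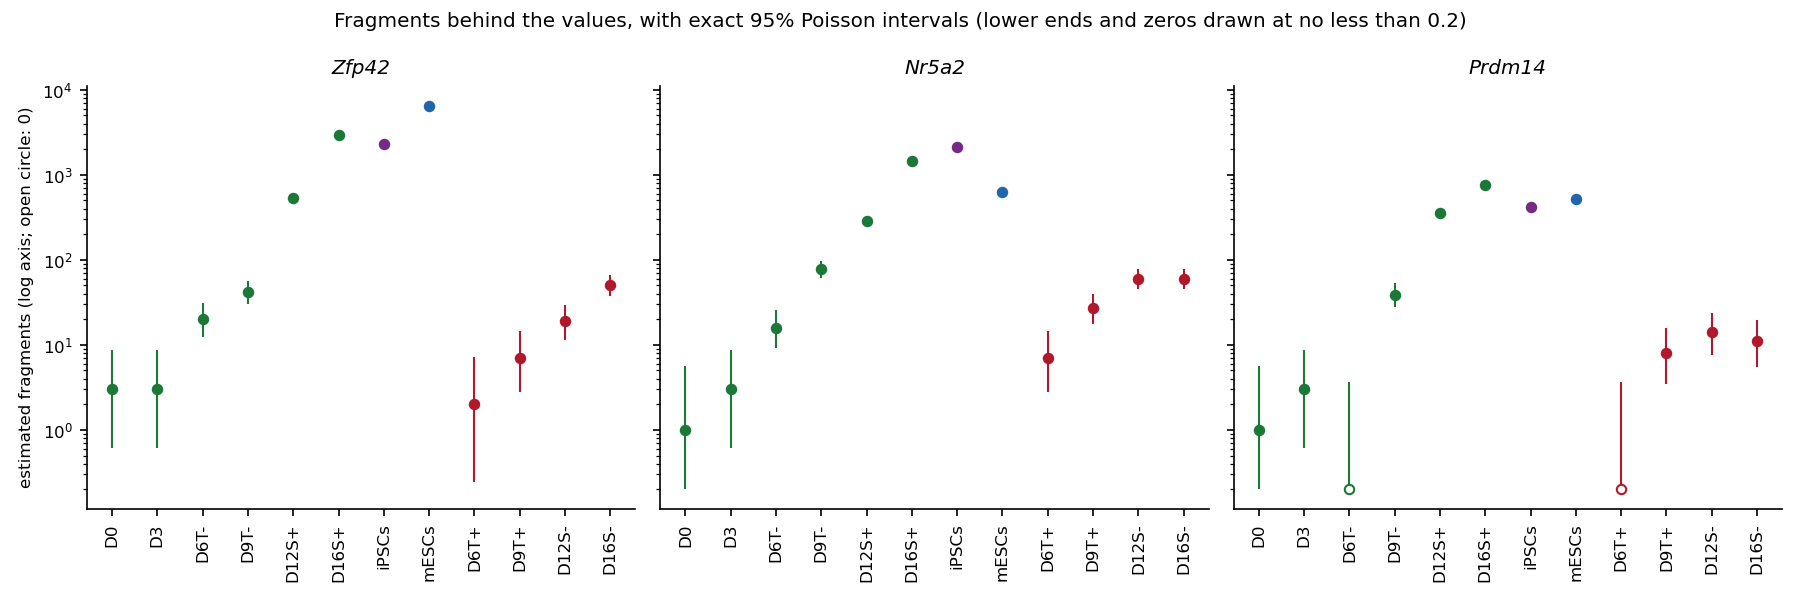
Estimated fragments of Zfp42, Nr5a2 and Prdm14 on a log y axis in each of the 12 libraries on the x axis, with exact 95% Poisson intervals as bars. Green marks D0, D3 and the successful fractions, red the unsuccessful ones, purple iPSCs and blue mESCs, and open circles are 0. Red points stay at or below 60 fragments, while D16S+ holds 2945, 1462 and 753.

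The order changed when each member was set against its own end level. Nr0b1 passed 10% of its iPSC FPKM in D6T-, Nanog and Tfcp2l1 in D9T- and the other 7 in D12S+ for good. Tbx3 among these 7 had begun above the mark, at 24.9% in D0, and was below it from D3 to D9T-. At 50% the order was another. Nanog, Esrrb and Prdm14 passed it in D12S+, and Tfcp2l1, Zfp42 and Klf2 in D16S+. Sall4, Tbx3, Nr5a2 and Nr0b1 did so only in iPSCs, so that both genes with the onset in D6T- were among the slowest by this measure. The direction turns with the reference: against mESCs, Nr0b1 stood at 74.4% in D6T- and 96.7% in D12S+, and Sall4 at 73.8% in D12S+, the highest shares of the 10 members in D12S+. Prdm14, late by the absolute threshold, went from 9.37% of its iPSC level in D9T- to 89.2% in D12S+. Nr5a2 stood at 49.2% in D16S+, just under the mark. The step from D9T- to D12S+ was shared most widely: 9 of 10 members were at least 2-fold higher in D12S+ (7.05% of kept genes), and Tfcp2l1 at 0.95 on the log2 scale was just short of it. The largest were those of Esrrb (3.09), Zfp42 (2.87) and Prdm14 (2.15), and the median was 1.84 against 0.01 over kept genes. From D12S+ to D16S+ all 10 were higher again, but Nanog, Zfp42 and Nr5a2 alone by at least 2-fold (3.59% of kept genes).

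**Figure D3:**
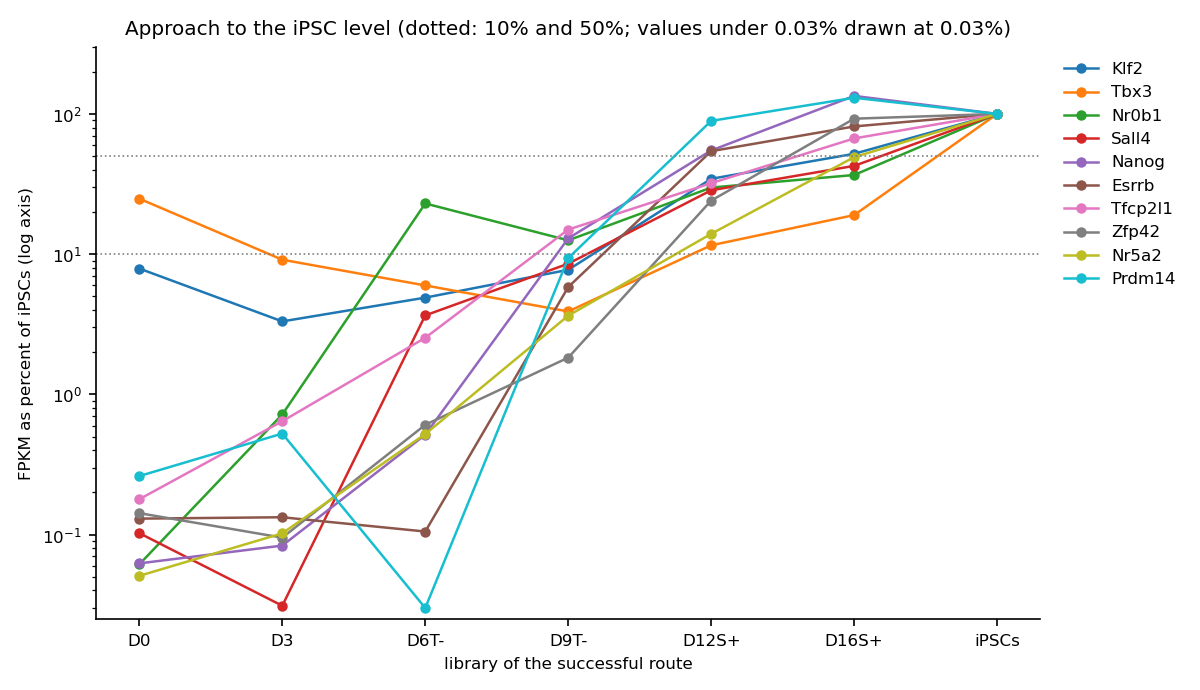
FPKM of each member as a percent of its FPKM in iPSCs, on a log y axis, in the libraries of the successful route on the x axis. Each line is a member and the dotted lines are 10% and 50%; values under 0.03% are drawn at 0.03%. Lines spread widely at D6T-, with Nr0b1 at 23.0% and Esrrb at 0.105%, and lie between 11.6% and 89.2% at D12S+.

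The fractions of each day were compared next, which asks when cells on the successful route part from the rest. At day 6, 2 of 10 members were at least 2-fold higher in D6T- than in D6T+, Nr0b1 by 2.79 and Sall4 by 1.88 on the log2 scale, and none was 2-fold lower. Among kept genes 2.93% were 2-fold higher and 9.47% lower. Klf2 differed by 0.12. The differences of Esrrb (0.10) and Nr5a2 (0.08) are held small by the scale at such levels, and were 0.46 and 0.44 with a pseudocount of 0.1. That pseudocount put Nanog (1.06), Tfcp2l1 (1.64) and Zfp42 (1.66) past 2-fold as well. At day 9, 4 members were at least 2-fold higher in D9T- (1.81% of kept genes): Esrrb by 1.70, Tfcp2l1 by 1.32, Nanog by 1.23 and Nr0b1 by 1.14. Sall4 at 0.96 was just short of it. Tbx3 was 2-fold lower in D9T-, by -1.06 (6.45% of kept genes). The counts at these low levels depend on the pseudocount: with 0.1 in place of 1 they were 5 at day 6 and 8 at day 9. The shares of kept genes were not recomputed with 0.1, so those given above do not go with these counts.

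At day 12, 9 members were at least 2-fold higher in D12S+ than in D12S- (4.79% of kept genes; 3.03% lower) and none was lower. The median member differed by 2.38 and the median kept gene by -0.01. Esrrb had the largest difference, 4.49, followed by Zfp42 with 3.34 and Nanog with 2.92, while Tbx3 with 0.91 was short of 2-fold. At day 16 all 10 members were at least 2-fold higher in D16S+ (11.8% of kept genes; 15.2% lower), between 1.38 for Tbx3 and 4.51 for Zfp42, with a median of 3.02 against -0.02. In each of the 10 members both D12S+ and D16S+ lay above all 4 unsuccessful fractions, which held for 26.3% of kept genes. For Tbx3 the margin was slight, 6.70 FPKM in D12S+ against 6.62 FPKM in D6T+.

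For Zfp42, Nr5a2 and Prdm14 the gaps could be set against counting error. The FPKM ratio of the successful over the unsuccessful fraction was 8.07 for Zfp42 at day 6 (95% exact interval 1.96 to 71.2), 28.7 at day 12 (18.2 to 48.0) and 38.2 at day 16 (29.0 to 51.4). For Nr5a2 it was 1.84 at day 6 (0.718 to 5.30), which does not separate the fractions, 2.56 at day 9 (1.64 to 4.13) and 16.1 at day 16 (12.4 to 21.2). For Prdm14 it was 4.33 at day 9 (1.99 to 10.7) and 45.3 at day 16 (25.2 to 91.1). The ratios compare libraries, not conditions. The intervals of cuffdiff were far wider, with a median half-width of 116% of the FPKM over the members' values, and those of the 2 fractions of a day overlapped for every member on every day. Between D0 and iPSCs they were apart for Esrrb, Sall4, Tfcp2l1, Zfp42, Nr5a2 and Nr0b1, 6 of 10 members against 0.466% of kept genes.

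**Figure D4:**
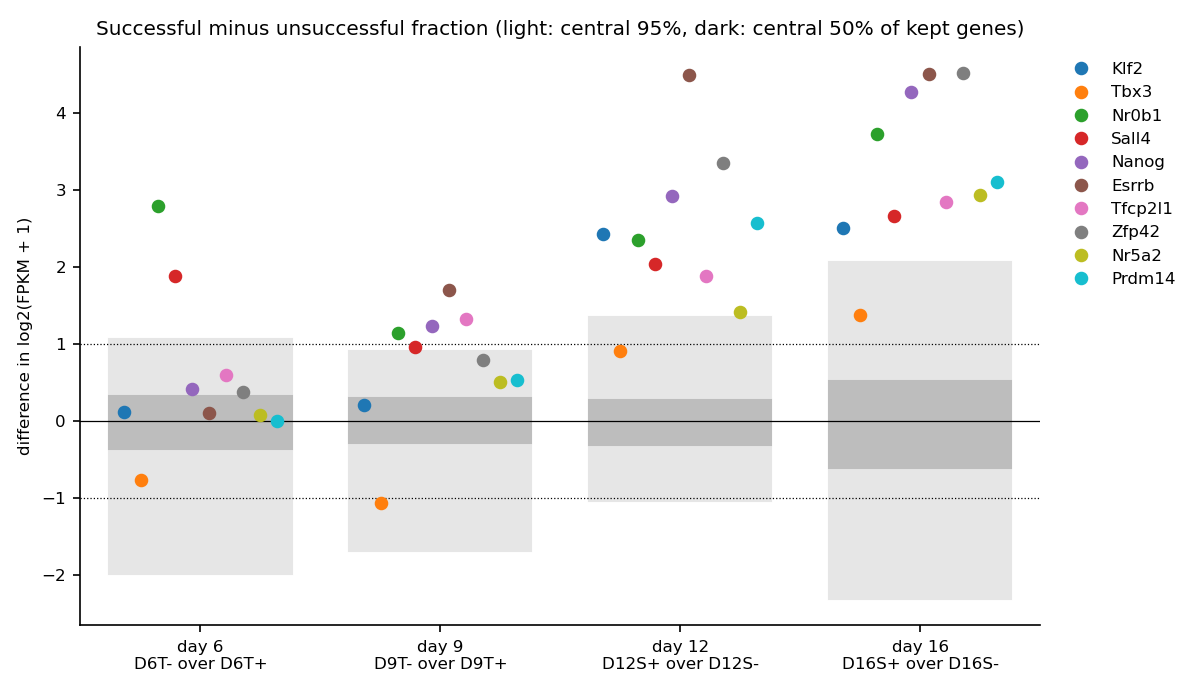
Difference in log2(FPKM + 1) between the successful and the unsuccessful fraction on the y axis, for the 4 sorted days on the x axis. Each point is a member, the light and dark boxes span the central 95% and 50% of the 14178 kept genes, and dotted lines mark 2-fold. Nr0b1 and Sall4 alone lie above 1 at day 6, and all 10 members do at day 16.

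The unsuccessful fractions were not without these genes. Against D0, 1 member was at least 2-fold higher in D6T+ (Nr0b1; 4.83% of kept genes), 5 in D9T+ (10.0%), 5 in D12S- (12.5%) and 6 in D16S- (12.8%). The 4 comparisons share D0. In D16S- the 6 were Nanog by 3.20, Sall4 by 3.06, Esrrb by 2.30, Tfcp2l1 by 1.52, Nr0b1 by 1.30 and Zfp42 by 1.16 on the log2 scale, and Tbx3 was lower by -1.74. On this scale most of this was in place by day 9, after which the gate changes. Nanog, Sall4 and Esrrb were at least 2-fold higher in D9T+ than in D6T+ (4.92% of kept genes), but none of the 10 was in D12S- over D9T+ (2.50%) or in D16S- over D12S- (2.03%). Nr0b1 even dropped by 2-fold between D12S- and D16S- (-1.09; 0.536% of kept genes). Zfp42 was an exception. It differed from D0 by 0.15 in D9T+, and was at 0.201, 0.492 and 1.42 FPKM in D9T+, D12S- and D16S- (7, 19 and 51 estimated fragments). Esrrb was at 2.27 FPKM in D9T+ and at 4.97 FPKM in D16S-. All members stayed far below their iPSC level in the unsuccessful fractions: the highest shares were 11.4% for Tbx3 in D6T+ and 8.67% for Klf2 in D16S-, genes that MEFs express, and between 2.42% for Zfp42 and 6.65% for Nanog in the others. Against mESCs the highest shares were 16.6% for Sall4 in D12S-, 16.5% for Nr0b1 in D9T+ and 16.5% for Klf2 in D16S-, while Zfp42 was at 0.818% in D16S-. D16S- was also below D9T- in 7 of 10 members, with a median difference of -0.455 over the 10 against 0.007 over kept genes. Nr0b1 alone was 2-fold lower (-2.26; 2.75% of kept genes). These 2 fractions were sorted by different markers. Fibroblast markers moved with the fractions: 8 of 10 were at least 2-fold lower in D16S+ than in D16S- (15.2% of kept genes). The part of remaining or admixed cells in the levels of D16S- was not tested.

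Tbx3 went the other way until day 9, while none of the other 9 was lower in a successful fraction. Its log2 difference between the successful and the unsuccessful fraction was -0.77 at day 6, -1.06 at day 9, 0.91 at day 12 and 1.38 at day 16. Among kept genes 1.15% were at least 2-fold higher in the successful fraction on some day and at least 2-fold lower on another. For Tbx3 the Thy-1+ fractions held 6.62 and 5.81 FPKM against 3.47 and 2.26 FPKM in the Thy-1- ones, nearer to the 14.4 FPKM of MEFs. The switch falls where the sorting marker changes, so day and gate cannot be told apart.

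At the end of the route the members had not all arrived. Compared with D0, 9 members were at least 2-fold higher in D16S+ (20.0% of kept genes) and 10 in iPSCs (18.7%), the exception being Tbx3 at -0.36 in D16S+. D16S+ was at least 2-fold below iPSCs in Tbx3 (-2.30), Nr0b1 (-1.42) and Sall4 (-1.22), against 4.38% of kept genes, and in no member 2-fold above (7.77%). Klf2 at -0.94 and Nr5a2 at -0.97 were close to the threshold, and Nanog at 0.42 and Prdm14 at 0.34 were higher in D16S+. In iPSCs the order of the levels was Esrrb, Klf2, Nanog, Sall4, Nr0b1, Zfp42, Tbx3, Tfcp2l1, Nr5a2 and Prdm14, from 165 to 7.17 FPKM. Neighbours such as Esrrb and Klf2 (165 and 161 FPKM), Nanog and Sall4 (143 and 140.0 FPKM) or Zfp42 and Tbx3 (58.6 and 57.9 FPKM) lay well inside each other's cuffdiff intervals. The pluripotent lines themselves differed. Nr0b1 (1.66), Nr5a2 (1.58) and Sall4 (1.35) were at least 2-fold higher in iPSCs than in mESCs (6.79% of kept genes), and Zfp42 was lower by -1.55 (7.41%). D16S+ was at 119% of the mESC level for Nr0b1, 159% for Nr5a2 and 110% for Sall4, so that it was nearer to mESCs than to iPSCs in these 3 genes.

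**Figure D5:**
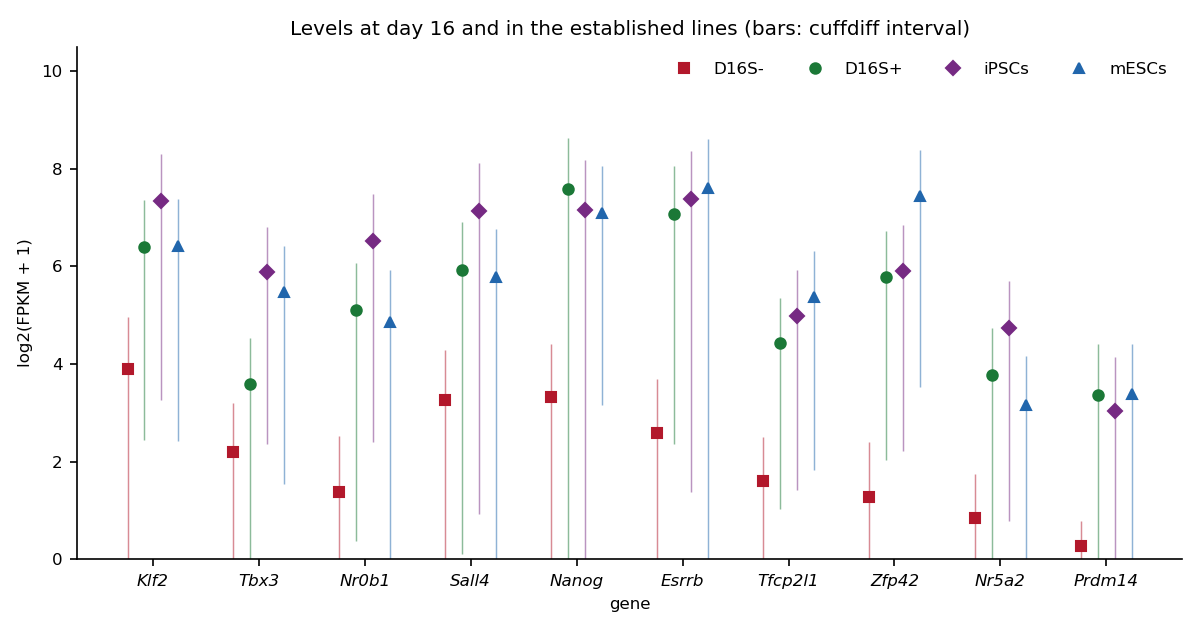
Level on the y axis, as log2(FPKM + 1), of each member on the x axis in D16S-, D16S+, iPSCs and mESCs, with the interval cuffdiff gave as bars. D16S- is the lowest point for all 10 members, Tbx3 in D16S+ lies 2.30 below iPSCs, and Zfp42 is the member with the highest mESC over iPSC level.

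The other genes of the network were read from lists of known members. Of 14 further regulators of pluripotency, 3 were at least 2-fold higher in D6T- than in D6T+ (Zscan10, Mybl2 and Sall1), 3 in D9T-, 9 in D12S+ and 10 in D16S+, beside 2.93%, 1.81%, 4.79% and 11.8% of kept genes, and none was 2-fold lower on any day. Utf1, a chromatin-bound factor of embryonic stem cells, was at 9.22 FPKM in D9T-, 254 in D12S+ and 372 in D16S+ against 19.9 in D16S-. Lin28a, an RNA-binding protein that blocks let-7 maturation, was at 49.7 FPKM in D16S+ and 3.38 in D16S-. The 4 reprogramming factors, whose values include reads of the viral coding sequences, had a course of their own: all 4 were at least 2-fold higher in D6T- than in D6T+, none differed by 2-fold at days 9 and 12, and all 4 were 2-fold lower in D16S+ than in D16S-. Klf4 was at 127 FPKM in D16S+ and 691 in D16S-, and Myc at 92.6 and 599 FPKM. At day 16 the fraction with the lower levels of the members thus had the higher OSKM levels, and the part of viral expression in this was not tested.

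Genes of primed pluripotency, the state after implantation, were higher along with the naive factors. Of 8 kept genes of 10, none was 2-fold apart at days 6 and 9, 6 were at least 2-fold higher in D12S+ than in D12S- (4.79% of kept genes) and 7 in D16S+ than in D16S- (11.8%). Otx2, a homeodomain factor of the primed state, was at 19.6 FPKM in D12S+ and 31.3 in D16S+ but at 1.81 in iPSCs and 2.11 in mESCs. Fgf5, the usual primed marker, was at 3.36 FPKM in D16S+ and at 0.0559 and 0.0395 FPKM in the lines. Not all of the list was so low in iPSCs. Pou3f1 and Eomes were lower there than in D16S+, but Dnmt3b was higher, at 156 against 52.2 FPKM. Zic2 (13.0 against 19.9 FPKM) and Lef1 (5.66 against 7.91 FPKM) were within 2-fold. In iPSCs 6 of the 8 kept genes were at least 2-fold higher than in D0 (18.7% of kept genes). Of the 6 genes of LIF signalling, 1 was 2-fold higher in D16S+ than in D16S- (Pim1; 11.8% of kept genes) and 2 were lower (Stat3 and Socs3; 15.2%), too few to set the list apart from kept genes. Of 8 listed repressors of naive factors, Nr6a1 was higher in D16S+, with 16.2 against 2.95 FPKM, Nr2f2 was lower, with 0.359 against 3.32 FPKM, and the other 6 were within 2-fold, Tcf7l1 and Mbd3 among them, which is also near the share of kept genes.

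The likeness of the profiles was measured as Pearson r over the 12 libraries, which share their course and are not independent points. Over the 36 pairs without Tbx3 the median r was 0.939 and the lowest 0.782, between Zfp42 and Nr0b1. The 9 pairs with Tbx3 ran from 0.460 to 0.776. Esrrb and Tfcp2l1 were the most alike, with 0.983. Of 8804 genes that reached 10 FPKM, those nearest to Nanog were Dppa5a (0.991), Foxh1 and Tdgf1, those nearest to Esrrb were Fgf4 (0.995), Ooep and Amt, and those nearest to Tfcp2l1 were Hsd17b14 (0.989), Nr6a1 and Syt9. Rims3 (0.997), Ell3 and Khdc3 came first for Zfp42, Gtsf1l (0.988), Tcl1 and Tuba3a for Prdm14, Arl14epl (0.994), Tmem39a and Dppa2 for Nr5a2, and Ncoa3 (0.984), Dppa2 and Fntb for Klf2. Sall4 was nearest to Socs2 (0.991), Gm6792 and Adnp2. Nr0b1 with Zmiz2 (0.978), Ep400 and Pfas, and Tbx3 with Afg3l1 (0.961), Psmb6 and Pole4, had the weakest nearest genes. These names depend on the measure: of the 30, a pseudocount of 0.1 kept 14, leaving out iPSCs and mESCs kept 6 and Spearman's rho kept 3.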

How the data were processed

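The authors prepared TruSeq libraries from polyadenylated RNA, with a stranded kit per the labels and with a kit not called stranded in the study's methods. They mapped the reads to mm9 with STAR, removed reads with more than 2 mismatches or more than 1 locus, and estimated expression with cuffdiff. The deposited values are FPKM with the interval that cuffdiff gave to each, of which the level was not stated. Tool versions, the gene annotation, the strand setting of the counting and the library scaling of cuffdiff are not given in the sources used here. Groups were taken from the labels, and the 12 status columns of cuffdiff were not used.

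Values were analysed as log2(FPKM + 1) in genes with at least 1 FPKM in at least 1 library (14178 of 24098). On this scale the change of low genes is understated. Differences are called at 2-fold without a test, since each condition has 1 library, and counts of members stand beside the share of kept genes past the same mark. Genes sharing the profile of a member were named as the 3 of highest Pearson r among genes of at least 10 FPKM somewhere. The members, the other gene lists and the motifs were chosen with earlier results of these data known. A further gene of the list of pluripotency regulators is not reported here.

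Relative depth, which includes the library scaling of cuffdiff, came from the values of 1 fragment in genes under 0.5 FPKM. Fragments were estimated only where a gene's low values, up to 100 steps, were all whole within 0.1 of a step, an addition made after seeing the data. Gene coordinates are those of the deposited table in mm9, counted from 1, and neighbours come from GENCODE M1. Reads of Sall4 and Tbx3 and of the transcripts opposite them cannot be told apart if counting ignored strand. Promoters were searched for motifs on both strands. Python 3.11.15, numpy 2.4.6, pandas 2.3.3, scipy 1.17.1 and matplotlib 3.10.9 were used, and the scripts were tested on simulated data. Alternatives were other pseudocounts (0.1 and 0.5), scalings, thresholds and no filter on low values.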

Additional observations from a re-analysis of the deposited data

Results flagged for a closer look

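Tbx3 stood lower in the successful fraction at days 6 and 9 and higher at days 12 and 16. Its difference on the log2(FPKM + 1) scale was -0.77 at day 6, -1.06 at day 9, 0.91 at day 12 and 1.38 at day 16. It was singled out because the direction turned between days 9 and 12, where the sorting marker changes from Thy-1 to SSEA-1, so that day and gate cannot be told apart. The turn was not tested, since each fraction has 1 library.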

How the results depend on the processing

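Of 605 recomputed values, 501 stayed and 104 moved. Staying meant within 1.5-fold of the reported value or, for an onset, the same day. A reversal could be called only for log2 differences of at least 1 in size, and none was. Of 400 differences of single members 345 stayed. The 0.1 pseudocount gave 5 members higher in D6T-, 8 in D9T-, 3 in D6T+ over D0 and 8 in D12S- over D0, and set the median difference at 4.08 in D16S+ over D16S- and, over D0, at 2.48 in D9T+, 3.10 in D12S- and 3.25 in D16S- (1.82 with 0.5). At 4-fold, 1 member was higher in D6T- and 0 in D9T-, 0, 3, 3 and 3 were higher than D0 in D6T+, D9T+, D12S- and D16S-, 0 were higher and 0 lower in iPSCs than in mESCs, and 1 was below iPSCs in D16S+. A threshold of 0.5 FPKM left 0 onsets in D12S+, and 5 FPKM gave 1 in D0, 2 in D9T- and 4 in D12S+. Against mESCs, 6 members passed 10% by D9T- and 5 passed 50% by D12S+. Of 60 onsets of single members 10 moved, none of them by scaling. At 0.5 FPKM Nr0b1 moved to day 3, Nanog and Tfcp2l1 to day 6, and Nr5a2 and Prdm14 to day 9. At 2 FPKM Zfp42 moved to day 12. At 5 FPKM Tfcp2l1, Zfp42 and Tbx3 moved to day 12 and Nr5a2 to day 16. Scaling to equal total FPKM shifted D0 by -0.26 and D16S+ by 0.16 on the log2 scale. Median-of-ratios factors shifted libraries by between -0.022 and -0.00014 only. The latter left the values almost as deposited, so that it could move little and is hardly a check. The share of all genes past each mark moved with no filter in every comparison, since it is then taken over more genes. It was recomputed for no other setting, so the counts with other pseudocounts, scalings or the 4-fold mark have no share beside them. No paired analysis was possible because each condition has 1 library and the labels give no replicate numbers that groups share. Absolute depth is unknown, levels under 1 FPKM rest on few fragments, and 7 of 10 members gave no fragment estimate.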

Other observations

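Markers of other lineages were uneven, and several were higher along with the naive factors. The summed level of 6 germ cell markers was 24.1 FPKM in D16S+, 18.7 in iPSCs and 6.22 in D16S-, where Prdm1 held 5.49 FPKM. Of the 6, 4 were at least 2-fold higher in D16S+ than in D16S- (11.8% of kept genes) and 5 than in D0 (20.0%). Dazl, a germ cell RNA-binding protein, was at 2.78 FPKM in D16S+ and 0.0664 in D16S-. The sum of 8 primitive endoderm markers was at 53.0 FPKM in D0, most of it from Pdgfra, also a fibroblast gene, and at 6.68 FPKM in D16S+, with 0.797 FPKM of Pdgfra, with Foxa2 under 1 FPKM in every library, and Gata4 was at 11.1 FPKM in mESCs. The sum of 7 trophoblast markers was at 344 FPKM in D16S+, 713 in D16S- and 758 in iPSCs, of which the keratin Krt18, also made by other epithelia, held 259, 664 and 711 FPKM. Cdx2, which defines trophoblast, was at 0.350 FPKM in D16S+ and 2.71 in iPSCs. Others of the list were higher: Tfap2c was at 65.7 FPKM in D16S+ and 19.2 in D16S-, and Hand1 at 10.7 and 24.2 FPKM. Against D0, 5 of the 7 were at least 2-fold higher in D16S+ (20.0% of kept genes), 5 in D16S- (12.8%) and 6 in iPSCs (18.7%). Of 6 leukocyte markers Ptprc and Cd52 were under 1 FPKM in every library, and the sum was highest in D16S- at 86.8 FPKM. Laptm5 held 57.3 and Csf1r 19.9 FPKM of that sum. Laptm5 was also at 52.1 FPKM in mESCs and 40.5 in iPSCs.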
